A study of Homo sapiens with 2 samples.

Results

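The loci described here are those of 6 genes of the G1/S machinery, the cyclin genes CCND1, CCND2 and CCNE1 and the kinase genes CDK2, CDK4 and CDK6. Their members are the TCF12 ChIP-seq peaks listed within 50 kb of the transcription start site (TSS) of each gene on hg19, with at least 1 bp of the peak inside. They number 14 of the 64251 peaks in the table. The genes were listed by name, with earlier results of these data known. Chromatin of Hep3B cells, an established human hepatocellular carcinoma line, was precipitated with the TCF12 antibody CST11825 and sequenced beside input DNA that had gone through no antibody. There was 1 ChIP library and 1 input library from 1 cell line, with no other condition and no library with a control antibody among the samples analysed, so no peak has a replicate check and no test between groups was possible.

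D-type cyclins, encoded by CCND1 and CCND2, pair with CDK4 or CDK6 and start the phosphorylation of the retinoblastoma protein in G1. Cyclin E1, encoded by CCNE1, pairs with CDK2 and carries the cell into S phase. TCF12 is an E protein of the basic helix-loop-helix family, which binds the E-box CANNTG as a dimer. The question put to the table was where TCF12 peaks lie at these genes in HCC cells, and whether the loci hold more or stronger peaks than the chromosomes around them.

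No listed peak touched a start site, but single positions seldom touch one. Listed peaks had a median length of 193 bp, and 17.1% to 29.6% of windows of 10001 bp on the chromosomes of these genes held one. The 14 peaks lay between 4636 and 47541 bp from the nearest TSS, and 12 of them lay beyond 10 kb. Most of each 50 kb window also lies beyond 10 kb. CCND2 had 4 peaks, CCND1, CCNE1 and CDK4 had 3 each, CDK2 had 1 and CDK6 had 0. As the base rate, windows of the same length, 100001 bp, were laid end to end over each chromosome, and a listed peak lay in 69.8% of them on chromosome 11 (CCND1), 72.6% on chromosome 12 (CCND2, CDK2 and CDK4), 89.6% on chromosome 19 (CCNE1) and 80.4% on chromosome 7 (CDK6). Cyclin loci held 10 of the 14 and kinase loci 4. Of the cyclin peaks, 5 were upstream and 5 downstream of the TSS in the direction of transcription. All 4 kinase peaks were upstream, but 3 of them were at CDK4 and 1 at CDK2. The map of the loci shows these positions.

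**Figure D1:**
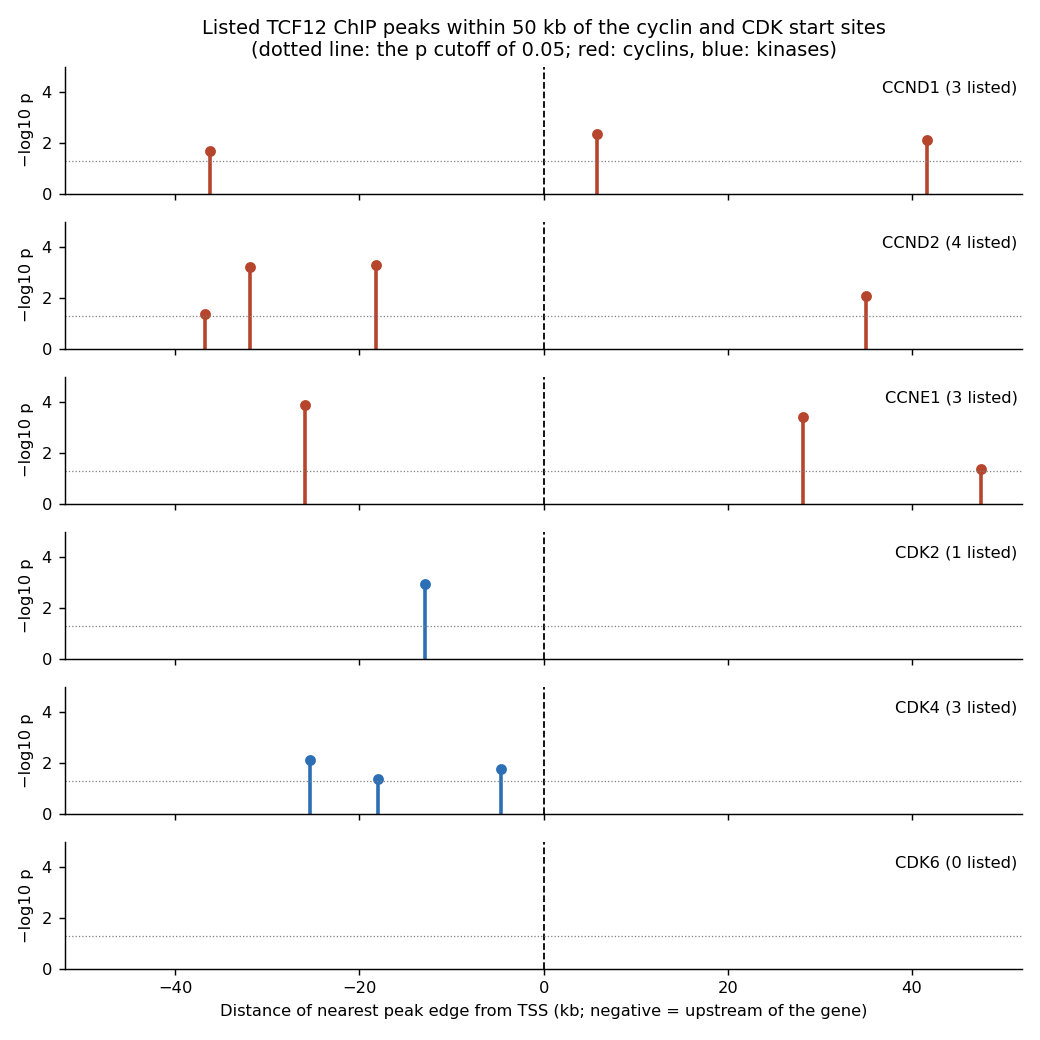
Listed TCF12 ChIP peaks within 50 kb of each TSS. The x axis is the distance of the nearest peak edge in kb, with negative values upstream of the gene, the y axis is the −log10 p that MACS gave, and the dotted line is the cutoff of 1.30; the tallest stems stand at CCNE1 and CCND2 and the CDK6 panel is empty.

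The promoters show what E-boxes these genes offer near their start sites, where no peak was listed. RefSeq promoter windows of 300 bases, with 250 bases before and 50 after the start, were at hand for 3 of the 6 genes, CDK4, CCNE1 and CDK6, the last with 2 start sites. All of these windows are shown. CDK4 has the peak nearest to a TSS, CCNE1 the strongest peak, and CDK6 none within 50 kb. They are given on GRCh38.p14, from 5′ to 3′ on the strand of the gene, with every CANNTG word in capitals. CDK4 is at chr12:57752261-57752560 on the minus strand, CCNE1 at chr19:29811741-29812040 on the plus strand, and the CDK6 windows are at chr7:92836524-92836823 and chr7:92833910-92834209 on the minus strand.
CDK4: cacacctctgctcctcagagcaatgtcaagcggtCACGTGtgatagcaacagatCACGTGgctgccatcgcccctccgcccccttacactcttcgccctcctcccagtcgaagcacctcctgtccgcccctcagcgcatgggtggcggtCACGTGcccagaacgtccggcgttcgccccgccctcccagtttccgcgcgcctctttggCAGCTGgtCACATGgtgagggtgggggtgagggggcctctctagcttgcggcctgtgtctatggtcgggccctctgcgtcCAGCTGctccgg
CCNE1: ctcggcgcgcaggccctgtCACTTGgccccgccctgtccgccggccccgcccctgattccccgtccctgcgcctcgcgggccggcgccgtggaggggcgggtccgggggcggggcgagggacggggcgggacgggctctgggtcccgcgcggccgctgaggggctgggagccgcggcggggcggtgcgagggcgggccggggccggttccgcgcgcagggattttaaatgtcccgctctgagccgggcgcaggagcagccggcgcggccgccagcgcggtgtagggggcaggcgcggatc
CDK6, window 1: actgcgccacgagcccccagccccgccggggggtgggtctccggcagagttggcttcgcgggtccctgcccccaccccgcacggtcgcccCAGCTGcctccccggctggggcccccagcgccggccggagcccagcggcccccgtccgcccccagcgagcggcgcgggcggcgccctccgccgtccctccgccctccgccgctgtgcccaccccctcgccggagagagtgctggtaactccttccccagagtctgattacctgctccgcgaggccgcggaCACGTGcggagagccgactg
CDK6, window 2: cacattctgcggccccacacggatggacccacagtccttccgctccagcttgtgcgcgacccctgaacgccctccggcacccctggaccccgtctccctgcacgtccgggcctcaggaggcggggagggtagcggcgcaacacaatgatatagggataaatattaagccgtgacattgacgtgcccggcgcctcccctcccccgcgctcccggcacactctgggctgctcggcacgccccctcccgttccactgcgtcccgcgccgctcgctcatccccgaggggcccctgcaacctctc

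CANNTG reads the same on both strands. CAGCTG and CACGTG, which do so too, are special cases of it. CAGGTG is another, and was also searched on the opposite strand. The CDK4 window holds 6 CANNTG words, and 0.615% of the 35116 RefSeq windows hold at least as many. Of these, 3 are CACGTG, the word that MYC and USF proteins are known to bind, at 216, 196 and 101 bases upstream of the start. CAGCTG, a word that E proteins are known to bind, stands 42 bases upstream and again 38 bases downstream, and CACATG stands 34 bases upstream. The first CDK6 window holds 2 matches, CAGCTG 160 bases upstream and CACGTG 30 bases downstream, a number reached by 36.4% of all windows, while its second window holds no CANNTG. Which of the 2 CDK6 starts is the hg19 TSS used for the distances was not checked. The CCNE1 window holds a single match, which is CACTTG and stands 231 bases upstream. For comparison, CANNTG was in 68.7% of all RefSeq windows, CAGCTG in 17.9%, CAGGTG in 20.6% and CACGTG in 7.26%. CAGGTG was in none of the 4 windows shown. Among 25 other genes of the G1/S transition, 21 had a window in the table, 29 windows in all. CANNTG was in 20 of these (69.0%), CAGCTG in 8 and CAGGTG in 3. These words are matches of letters and not measured binding sites.

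Summed over the 6 loci, the shares of windows with a peak on their chromosomes come to 4.58 loci, and 5 of the 6 had one. The mean number of peaks per window, summed in the same way, was 15.50, against the 14 found. Taken from windows within 5 Mb of each TSS, the sum was 19.61. Assembly gaps counted as empty in both sums. So did windows past the chromosome start at CCND2 in the second, which is therefore too low. The 6 loci together therefore held no more peaks than windows of their own chromosomes or neighbourhoods hold on average. By role, cyclin loci had 10 peaks against 8.07 from their chromosomes and 13.57 from their neighbourhoods, and kinase loci had 4 against 7.43 and 6.04. The value of 13.57 is too low for the same reason at CCND2.

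Close to the start sites the picture was the same. Within 5 kb of the TSS, 1 of the 6 loci had a peak, CDK4. Windows of 10001 bp held a peak in 17.1% of cases on chromosome 11, 17.7% on chromosome 12, 29.6% on chromosome 19 and 23.6% on chromosome 7, which sums to 1.24 loci.

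Between 3 and 11 ChIP reads lay at their summits, with a median of 4.50 against 5 over the table, and 9 of the 14 peaks (64.3%) rested on 3 to 5 reads, against 69.8% of the table. The −log10 p ranged from 1.37 to 3.88 with a median of 2.11, against 2.34 over the table and a cutoff of 1.30. The fold enrichment ranged from 1.95 to 3.39, and its median of 2.53 was that of the table. In every one of the 14 the q was 1, as in 99.7% of the table. With 1 read fewer at the summit, 5 of the 14 would have fallen under the p cutoff, and in 5 the exact 95% Poisson interval of the scaled ChIP reads held the input background. Neither share was computed over the table, so these counts do not set the 14 apart from it. A −log10 p of at least 2 was reached by 9 of the 14 peaks, 64.3%, a lower share than the 77.0% of the table. One of at least 3 was reached by 4 peaks, 2 at CCND2 and 2 at CCNE1. That is 28.6% of the 14, a higher share than the 18.7% of the table. Windows of 50 kb on both sides held such a peak in 24.3% of cases on chromosome 11, 26.5% on chromosome 12, 48.0% on chromosome 19 and 40.0% on chromosome 7. These shares sum to 1.92 loci, and 2 had one.

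**Figure D2:**
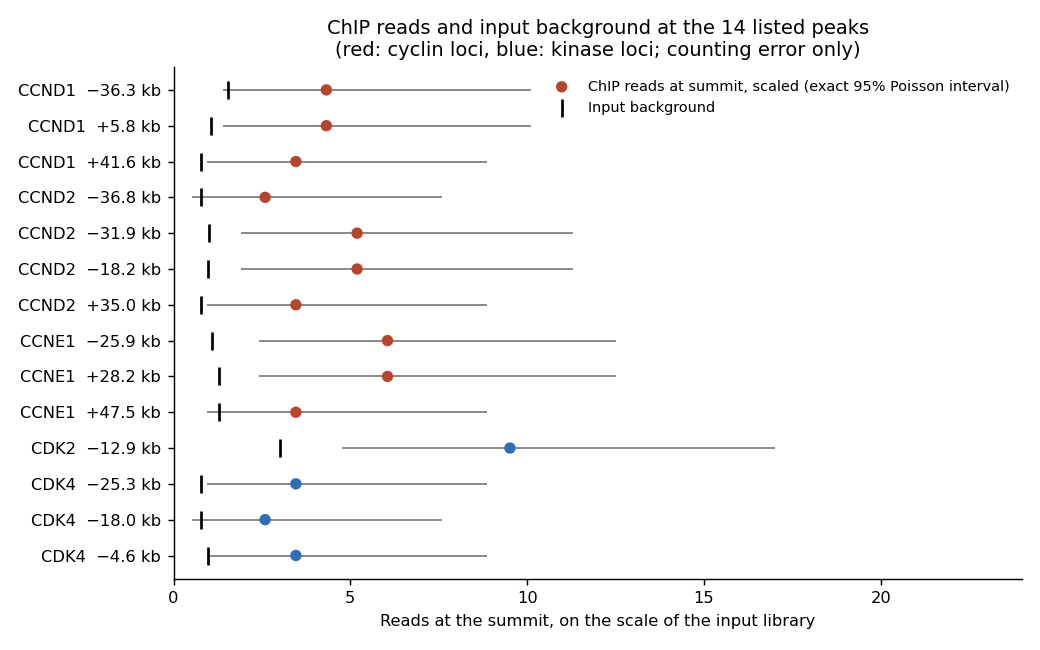
ChIP reads and input background at the summits of the 14 peaks. The x axis is reads on the scale of the input library, each row is a peak with its distance from the TSS, points carry the exact 95% Poisson interval (counting error only) and black ticks mark the input background; the interval of 5 peaks reaches down to the background, and the CDK2 peak has the most reads and the highest background.

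CCNE1 (chromosome 19, TSS 30302901, plus strand) had the strongest peak of the set. It lay at chr19:30276727-30276953, 25948 bp upstream, with 7 ChIP reads at the summit (exact 95% Poisson interval 2.81 to 14.4), or 6.05 on the scale of the input library, where the background was 1.08. Its fold enrichment was 3.39 and its −log10 p 3.88, and 4.95% of all listed peaks were at least as strong. A second peak with 7 reads, at chr19:30331060-30331281 and 28159 bp downstream, had a background of 1.29 and a −log10 p of 3.42. The third, 47541 bp downstream at chr19:30350442-30350747, was the outermost of all 14, with 4 reads and a −log10 p of 1.38. The pair of stronger peaks thus flanked the gene start at similar distances, and no peak lay closer. On chromosome 19 at least 3 peaks were in 63.7% of windows and a peak as strong as 3.88 was in 15.8%, so the number was common and the strength was in the upper part. From the centre of a window, a peak was at most as far as 25948 bp in 76.9% of windows. The nearest named protein-coding genes in RefSeq are C19orf12 upstream and URI1 downstream.

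CCND2 (chromosome 12, TSS 4382902, plus strand) had the most peaks, 3 upstream and 1 downstream. The nearest, at chr12:4364499-4364716, lay 18186 bp upstream with 6 reads (2.20 to 13.1) over a background of 0.966. The fold enrichment there was 3.15, and the −log10 p was 3.30. From the centre of a window a peak was at most this far in 43.1% of windows. Another at chr12:4350877-4351037, 31865 bp upstream, also had 6 reads, over a background of 1.00 that equals 1 input read at the summit, and its −log10 p was 3.23. These 2 peaks had the same number of reads and could not be told apart in strength. The remaining 2, at 36776 bp upstream and 35033 bp downstream, had 3 and 4 reads and a −log10 p of 1.37 and 2.06. On chromosome 12 at least 4 peaks were in 20.3% of windows, and a peak of at least 3.30 was in 21.2%. Within 5 Mb of CCND2, where 52.5 peaks per Mb were listed against 21.2 over the chromosome, at least 4 peaks were in 63.6% of windows. The TSS is less than 5 Mb from the chromosome start, so some of these windows lay off the chromosome and counted as empty. Both local values are therefore too low. The neighbours of CCND2 in RefSeq are PARP11 upstream and TIGAR downstream.

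CCND1 (chromosome 11, TSS 69455873, plus strand) had the second-nearest peak of the set, 5812 bp downstream at chr11:69461685-69461845, in the direction of the gene body. It rested on 5 reads (1.62 to 11.7) over a background of 1.06. Its fold enrichment was 2.58 and its −log10 p 2.33, and 50.4% of the table was at least as strong. The other peaks of CCND1 were at chr11:69419448-69419608, 36265 bp upstream, with 5 reads and a −log10 p of 1.68, and at chr11:69497467-69497627, 41594 bp downstream, with 4 reads and a −log10 p of 2.11. All 3 had the minimum length of 161 bp, as had 6 of the 14 peaks (42.9%) and 37.2% of the table. At least 3 peaks were in 29.5% of windows of chromosome 11, a peak of at least 2.33 in 47.0%, and a peak within 5812 bp of the centre in 18.0%. RefSeq places MYEOV upstream and LTO1 downstream.

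The neighbourhood of CCND1 was denser than the locus. Within 5 Mb, 48.3 peaks per Mb were listed against 21.1 over chromosome 11, and at least 3 peaks were in 63.6% of the windows there. Peaks per Mb were 30.0 within 50 kb of the TSS, 60.0 from 50 to 100 kb, 93.3 from 100 to 250 kb, 142 from 250 to 500 kb and 82.0 from 500 to 1000 kb and 32.2 from 2500 to 5000 kb. The input background at the listed peaks was also higher around CCND1 than over the chromosome. Within 5 Mb of CCND1, 88.6% of the peaks had an input background above the genome-wide level of 0.763 reads, against 52.9% over chromosome 11, with a median background of 2.00 against 0.805. The median was 3.11 from 50 to 100 kb and 2.09 from 250 to 500 kb, where the density was highest. The part of the input depth in the density was not tested. At CCND2 the density was also above that of the chromosome in every distance band, but the median background within 5 Mb was 0.805 against 0.763.

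**Figure D3:**
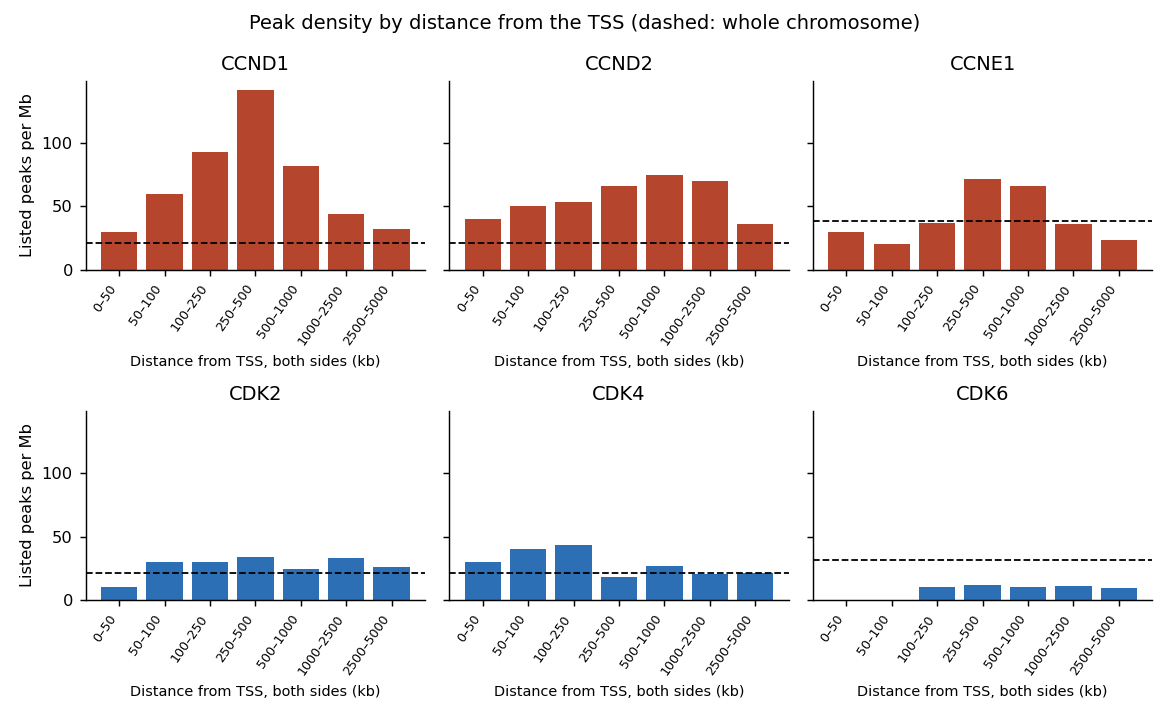
Listed peaks per Mb by distance from the TSS at the 6 loci. The last band of CCND2 runs past the chromosome start, so its value is too low. The x axis gives distance bands in kb with both sides counted together, the y axis is peaks per Mb and the dashed line is the whole chromosome; CCND1 rises to 142 peaks per Mb from 250 to 500 kb, and CDK6 stays at or under 12.0 in every band.

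CDK4 (chromosome 12, TSS 58146304, minus strand), the partner kinase of D-type cyclins, had the nearest peak of the 6 genes. It lay 4636 bp upstream at chr12:58150940-58151273, on the side of MARCHF9, the next gene there in RefSeq. Whether it falls inside MARCHF9 was not checked. The peak was 334 bp long, the longest of the 14, and had 4 reads at its summit (1.09 to 10.2) over a background of 0.966. Its enrichment was 2.27-fold, with a −log10 p of 1.77. Of the table, 81.9% was at least as strong, and with 1 read fewer the −log10 p would have been 1.13, under the cutoff. The other peaks were 17996 bp upstream at chr12:58164300-58164631, with 3 reads and a −log10 p of 1.37, and 25324 bp upstream at chr12:58171628-58171822, with 4 reads and 2.11. Nothing was listed downstream within 50 kb, and the first peak there was 61788 bp away. A peak at most 4636 bp from the centre was in 15.5% of windows of chromosome 12, at least 3 peaks were in 29.8%, and a peak of at least 2.11 was in 64.1%. The promoter printed above, with its 6 E-boxes, held no listed peak. At the CDK4 locus the largest −log10 p, 2.11 at the peak 25324 bp upstream, was the lowest such maximum among the 5 loci with a peak.

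CDK2 (chromosome 12, TSS 56360556, plus strand), the partner of cyclin E1, had a single peak, at chr12:56347456-56347636, 12920 bp upstream on the side of PMEL. It had the most reads of the set, 11 (5.49 to 19.7), or 9.51 after scaling. Its background was also the highest, at 3.00, which equals 3 input reads at the summit and is 3.93 times the genome-wide level. The fold enrichment was 2.63 and the −log10 p 2.96, below those of the 7-read peaks at CCNE1. A peak of at least this strength was in 27.7% of windows of chromosome 12, and a peak within 12920 bp of the centre in 35.0%. Just outside the 50 kb limit, a peak 52290 bp downstream had 3 reads and a −log10 p of 1.34.

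CDK6 (chromosome 7, TSS 92463231, minus strand), the other partner of D-type cyclins, had no listed peak within 50 or 100 kb. The nearest downstream, at chr7:92274193-92274353, was 188878 bp away with 4 reads and a −log10 p of 2.11. It lay in the direction of transcription, and whether it falls inside the gene was not checked. The nearest upstream, at chr7:92659037-92659436, was 195806 bp away with 5 reads and a −log10 p of 2.94. The stretch of 384683 bp between them was among the 15 longest of the 5059 stretches between peaks on chromosome 7, whose median was 13410 bp. Stretches at least as long take up 7.60% of the span of chromosome 7, and 2 of the 97 within 5 Mb of CDK6 were at least as long, its own included. From the centre of a window, the nearest peak was at least as far as 188878 bp in 4.15% of windows. The neighbourhood was sparse as a whole, with 9.80 peaks per Mb within 5 Mb against 31.8 over the chromosome. No peak was listed in 42.4% of windows within 5 Mb of CDK6, against 19.6% over chromosome 7. The input background at the listed peaks was lower there too. Of the peaks within 5 Mb, 36.7% had a background above the genome-wide level, against 59.6% over the chromosome. What part the input depth had in this density was not tested. At this depth a position with fewer than 3 ChIP reads could not be listed, so weaker binding at CDK6 was not detectable.

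The limit of 50 kb cut between near neighbours. The outermost peak inside was the one at CCNE1, 47541 bp from the TSS, and the next outside were 52174 bp from CCNE1, 52290 bp from CDK2 and 53544 bp from CCND1. The first and the last of these, with 7 and 6 reads and a −log10 p of 2.34 and 2.70, were as strong as many of the peaks counted.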

How the data were processed

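Hep3B chromatin from 1 TCF12 ChIP library and 1 input library was analysed, grouped by their labels. The submitters' processing notes name CASAVA 1.4, Bowtie2 2.0, Picard 2.19.0 and MACS2 2.1.2 with hg19. The authors called peaks with a p cutoff of 0.05 and an effective genome size of 1870000000 bp, the mouse preset of MACS, from 10254561 ChIP and 8862145 input tags. The deposited pileup is a signal, the ChIP reads over the summit after extension, multiplied by 0.864 to match the input. The deposited fold enrichment is a ratio of pileup to background with a pseudocount. The −log10 of p and q are the authors' values. The file header states that q was not calculated, but the column holds values from 0 to 14.8, used as deposited.

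Pileups were turned back into reads with that factor, which gave whole numbers for 100% of peaks (tolerance 0.0051 of the pileup), and backgrounds followed from reads and fold. A Poisson −log10 p computed from them was within 5.26e-05 of the one deposited. Intervals are exact 95% Poisson intervals and cover counting error only. The TSS positions on hg19 came with the choice of genes and were not checked against an annotation. A peak counted when at least 1 bp lay in the window. Windows were tiled from the first to the last listed peak of a chromosome, assembly gaps included. Window functions were tested on simulated data. No p across samples was computed.

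The genes, the 50 kb limit and the lists were chosen with earlier results of these data known. Peaks named were all those within 5 kb, the nearest and the strongest at each gene. The words CACGTG were added after the promoters were seen, as were the remaining peaks, the distance bands and the stretch around CDK6. RefSeq supplied promoters and neighbouring gene names (GRCh38.p14). Peaks were placed by their distance from the TSS only, not inside or outside genes. Promoters of CCND1, CCND2 and CDK2, an hg19 genome, and peaks at the 25 other genes were not used here. Alternatives were other windows, overlaps, thresholds, tilings, genome size and 1 read fewer. Python 3.11.15, numpy 2.4.6, pandas 2.3.3, scipy 1.17.1 and matplotlib 3.10.9 were used.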

Additional observations from a re-analysis of the deposited data

How the results depend on the processing

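The 14 peaks within 50 kb became 2 within 10 kb, 5 within 25 kb and 34 within 100 kb. Windows of these other lengths were not tiled, so no count of peaks or loci at them has a base rate. Within 50 kb, the 14 peaks became 9 with a −log10 p of at least 2, which 77.0% of the table reached, and 4 with at least 3, which 18.7% reached. They became 4 at a fold of 3 or more, a share not computed over the table. With a −log10 q above 0 there were 0, against 222 of the 64251 peaks. The 5 loci with a peak became 2 within 10 kb, 2 at a −log10 p of 3 or more, 2 at a fold of 3 or more, and 0 with a −log10 q above 0. Counting summits or whole peaks changed neither count. CDK6 had 0 within 100 kb too. The other alternatives were narrower or stricter and could not raise its count.

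The share of windows with a peak fell with a −log10 p of at least 2 to 61.7% on chromosome 11, 64.5% on 12, 85.9% on 19 and 75.6% on 7, and with at least 3 to 24.3%, 26.5%, 48.0% and 40.0%. With that last threshold the sum over the 6 loci was 1.92, and 2 loci had such a peak. Over chromosomes 1 to 22 and X the share was 68.0%. Within 5 Mb it was 87.9% for CCND1, 89.9% for CCND2, 81.8% for CDK2, 75.8% for CDK4, 69.7% for CCNE1 and 57.6% for CDK6. Windows in assembly gaps, or past the chromosome start at CCND2, counted as empty in these shares. How many of the 30 empty windows of 99 near CCNE1 lay in a gap was not counted, so its share may be too low. Windows with at least as many peaks as the locus were 29.5% for CCND1, 20.3% for CCND2, 29.8% for CDK4 and 63.7% for CCNE1. Leaving out stretches of over 1 Mb without a peak, chosen after seeing the data, gave 94.8% on chromosome 19 and 82.7% on chromosome 7. Tiles offset within the window length changed no share beyond its 95% Wilson interval.

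The nearest peak with a −log10 p of at least 3 was 114544 bp from CCND1, 130767 bp from CDK2, 193621 bp from CDK4 and 449314 bp from CDK6, and stayed at 18186 bp for CCND2 and 25948 bp for CCNE1. The human genome size lowered the genome-wide background to 0.528 and raised the −log10 p of peaks at that background, such as the strongest at CDK4, from 2.11 to at most 2.67. The peak 195806 bp upstream of CDK6 went from 2.94 to at most 3.65. With this genome size, combined with the threshold of 3 after seeing the data, the nearest such peak could lie at 76544 bp from CDK2, 61788 bp from CDK4 and 195806 bp from CDK6, and at the same distance as above from the other 3 genes. Peaks it would add could not be counted. No paired analysis was possible because the ChIP and the input are a single library each.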
